A study of Mus musculus with 24 samples.

Results

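The genes described here are 36 genes of glycolysis and of the transcriptional response to low oxygen, chosen by their symbols from the 25229 genes of the count table. They were followed in 24 RNA-seq libraries of ID8 P53 KO cells, a mouse ovarian cancer line that lacks functional Trp53 and grows in high-glucose medium with pyruvate. Cells had been treated for 6 days with DMSO, the vehicle, with Cisplatin at 750 nM, with AU15330 (AU-15330) at 2.5 µM, or with both drugs, and each of the 4 groups held 6 replicates. Cisplatin is a platinum drug that crosslinks DNA, and AU-15330 is a degrader of the PROTAC type that removes SMARCA4 and SMARCA2, the ATPases of the SWI/SNF chromatin remodeler. The Trp53 disruption is shared by all groups, including the DMSO controls, and a single cell line was used. Both the concentration and the time are those of the sample labels; the methods of the study give a different cisplatin concentration for these cells.

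Glycolysis breaks glucose down to pyruvate in the cytosol, and lactate dehydrogenase can then reduce the pyruvate to lactate. When oxygen is scarce, the prolyl hydroxylases that mark HIF-1α for destruction slow down, HIF-1α pairs with ARNT, and the dimer binds a short element, RCGTG, near its target genes. Those targets include most glycolytic enzymes, the glucose transporter GLUT1, angiogenic factors and collagen-modifying enzymes, and many tumor cells keep them active even in oxygen.

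Between 17592588 and 25260009 reads per library had been counted on genes, so that 3 counts corresponded to 0.120 to 0.186 CPM (counts scaled to a common library size with edgeR's TMM factors). Of the 36 genes, 35 passed the filter on low counts and Bnip3 did not, and 12941 genes of the whole table passed. A gene was called higher or lower at an adjusted p-value under 0.05 (edgeR's quasi-likelihood F test, Benjamini-Hochberg adjustment over the 12941 genes), and values after ± are standard errors of the log2 fold change over 6 libraries per group. The labels do not say whether replicates were separate cultures, so the p-values measure the spread between these libraries, which may be technical. The mesothelial and epithelial genes Krt8, Krt18, Krt19 and Msln were detected in every library, with medians of 317, 615, 1611 and 536 CPM in DMSO-treated cells, whereas Ptprc, Cd3e, Itgam and Lyz2 of leukocytes and Cdh5, Kdr and Tek of endothelium did not pass the filter. A single gene of each of those lists did pass. Cd68, a lysosomal protein abundant in macrophages, was higher with AU-15330 (1.56 ± 0.29, from a median of 10.6 to 35.2 CPM), by 2.83 within replicates 4 to 6 and by 0.32 and not called within replicates 1 to 3. Pecam1, an adhesion protein of endothelium, was higher with cisplatin (1.49 ± 0.16) and lower with AU-15330 (-2.95 ± 0.20), at no more than 12.4 CPM. All 5 fibroblast genes passed, with summed levels of 247 to 657 CPM with DMSO and 164 to 269 CPM with AU-15330, and AU-15330 raised 4 (Pdgfra, Col3a1, Dcn and Lum) and lowered Col1a1, where 36.2% and 37.2% of all tested genes were called higher and lower. Cisplatin raised 3 and lowered 1, beside 26.0% and 25.7%. The part of these genes in the results that follow was not tested. AU-15330 acts on proteins, so the transcripts of its targets do not check the treatment labels.

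First, the share of counted reads that fell on the 36 genes was compared. In DMSO-treated cells they took 1.14% to 2.90% of the reads (median 1.76%), in cisplatin-treated cells 0.626% to 1.11% (median 0.881%), with AU-15330 0.975% to 1.05% (median 1.01%) and with the combination 0.856% to 0.913% (median 0.896%). Every DMSO library lay above every library of the other 3 groups. In bulk RNA, fewer cells expressing a gene and less RNA per cell cannot be told apart. DMSO replicates 1 to 3 held 2.09% to 2.90% and replicates 4 to 6 held 1.14% to 1.43%, and cisplatin replicates 1 to 3 held 1.02% to 1.11% against 0.626% to 0.741% in replicates 4 to 6. With AU-15330 the same order was seen over a narrow range, 1.02% to 1.05% against 0.975% to 1.01%, and with the combination the 2 sets overlapped.

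**Figure D1:**
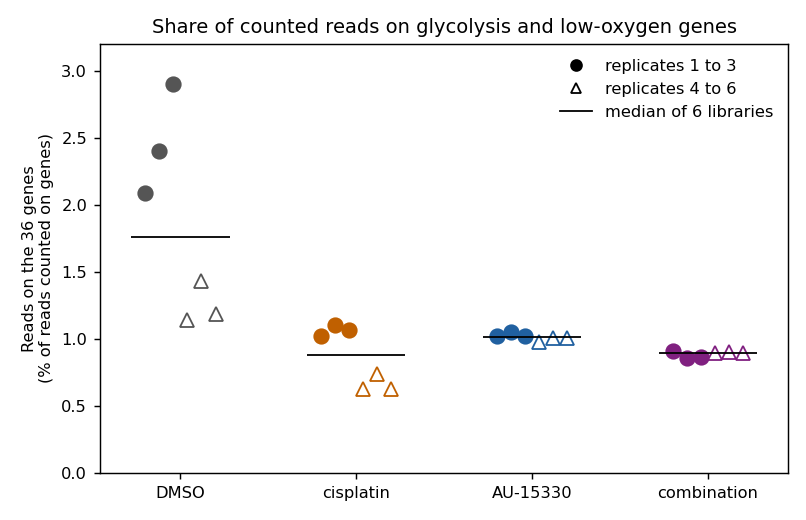
Share of the reads counted on genes that fell on the 36 glycolysis and low-oxygen genes (y axis, percent), for the 4 treatments (x axis). Each point is a library, filled circles are replicates 1 to 3, open triangles are replicates 4 to 6 and the line is the median of 6 libraries. The median is 1.76% with DMSO and 0.881%, 1.01% and 0.896% with cisplatin, AU-15330 and both.

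Against DMSO, cisplatin lowered 30 of the 35 tested genes, raised 1 and left 4 uncalled, beside 25.7% of all tested genes called lower and 26.0% called higher (51.7% in either direction). The median log2 fold change of the 35 genes was -0.91, against -0.0041 over all genes tested, and for 21 of them every cisplatin library lay below every DMSO library, which held for 9.78% of all genes, with 14.2% parted upwards and 24% in either direction. AU-15330 lowered 28 of the 35, raised 6 and left 1 uncalled, against 37.2% and 36.2% of all genes (73.4% together), with a median of -1.13 against -0.0030. The libraries of the groups did not overlap for 23 genes that were lower and 5 that were higher with AU-15330, beside 25.4% and 24.5% of all genes (49.9% together). The comparisons with DMSO use the same 6 DMSO libraries, so that their results are not independent of each other.

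When AU-15330 was added to cisplatin, 15 of the 35 genes were lower than with cisplatin alone, 8 were higher and 12 were not called, against 32.7% of all genes called lower and 35.4% called higher (68.1% together). Their median log2 fold change was -0.47, against 0.039 over all genes, and the groups parted without overlap for 11 genes downwards and 7 upwards (25.5% and 24.7% of all genes, 50.2% together). Compared with AU-15330 alone, the combination had 7 genes lower, 5 higher and 23 uncalled, where 19.5% and 22.2% of all genes were called (41.7% together), and the median was -0.12 against 0.0062. In that comparison 10 genes parted without overlap downwards and 5 upwards, beside 13.6% and 16% of all genes (29.6% together).

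**Figure D2:**
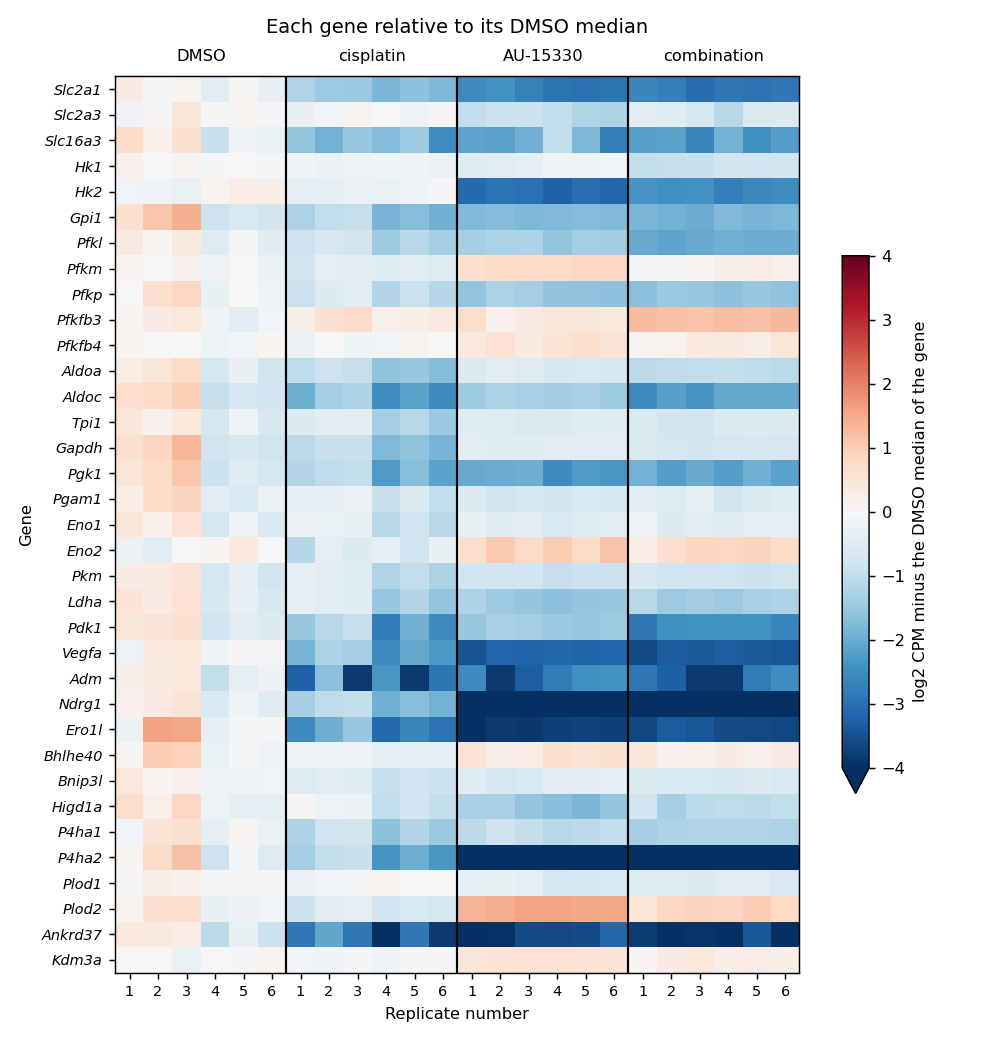
Log2 CPM of the 35 tested genes (rows) in each of the 24 libraries (columns, by treatment and replicate number), minus the median of the gene in the 6 DMSO libraries. Blue is below and red above the DMSO median, and the color scale ends at 4 log2 units, a limit that P4ha2 and Ndrg1 pass in every library with AU-15330 or the combination, and Ankrd37 and Ero1l in some drug-treated libraries. Most rows are blue in the 3 drug-treated groups, while Pfkm, Eno2, Plod2 and Kdm3a are red with AU-15330.

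The replicate numbers carried a structure that bears on these genes. In DMSO-treated cells 23 of the 35 genes had replicates 1 to 3 all above replicates 4 to 6, and in cisplatin-treated cells 22 did, whereas 11.6% and 13.4% of all tested genes showed this order. With AU-15330 and with the combination the order held for 8 and 1 of the 35, beside 16.2% and 9.02% of all tested genes. The median SD of log2 CPM of the 35 genes was 0.513 with DMSO and 0.380 with cisplatin, above the medians over all genes of 0.254 and 0.185, and it was 0.129 with AU-15330 and 0.134 with the combination, where all genes gave 0.138 and 0.145. The labels name no batch, and the 2 sets of numbers were chosen after the data were seen, so each comparison was also computed within replicates 1 to 3 and within replicates 4 to 6. Cisplatin lowered 29 of the 35 genes in the former and 28 in the latter, where 2789 and 2588 of the 12941 tested genes were called lower. AU-15330 lowered 29 and raised 5 in the former, beside 4305 and 4304 of all tested genes, and lowered 22 and raised 8 in the latter, beside 4391 and 4210. For the combination against cisplatin, the median log2 fold change was -0.75 within replicates 1 to 3, with 19 genes lower and 7 higher, and 0.032 within replicates 4 to 6, with 11 lower and 14 higher. Over all tested genes, 3763 were lower and 3986 higher in the former and 3974 and 4077 in the latter. What distinguished the 2 sets of replicates was not tested.

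Because HIF binds RCGTG, the 250 bases before the transcription start were searched for ACGTG and GCGTG on both strands. RefSeq promoter windows (build GRCm38.p6) were matched by symbol for 30 of the 36 genes; Slc2a3, Ndrg1, Ero1l, Bhlhe40, Bnip3l and Plod2 were not matched. At least 1 such core lay in the window of 27 of the 30 genes (90%), against 61.0% of the 10265 tested genes with a window and 41.5% of the 27025 genes in the table of windows. A gene could have more than 1 window, with 46 windows over the 30 genes and 13027 over the 10265, and their median GC contents were 61% and 59.6%. The E-box CACGTG, which contains the core ACGTG, was found in 4 of the 30 genes and in 9.74% of the tested genes. Of the genes that cisplatin lowered, 22 of 25 with a window held the core, and so did 4 of the 4 that it did not lower; for AU-15330 the counts were 22 of 24 and 4 of 5. A match is a stretch of letters and not a measured binding site.

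The following 7 windows show how the cores lie in genes whose responses differed, with each core in capitals and overlapping cores run together. Slc2a1 (chr4:119108495-119108744, plus strand), Pgk1 (chrX:106186850-106187099, plus strand), Adm (chr7:110627407-110627656, plus strand) and Ankrd37 (chr8:45999851-46000100, minus strand) were lower with each drug. P4ha2 (chr11:54100674-54100923, plus strand) had the largest decrease of the 35 genes with AU-15330, and Pdk1 (chr2:71872974-71873223, plus strand, the first of 2 windows) was lower with the combination than with either drug. Eno2 (chr6:124769674-124769923, minus strand) holds no core and was higher with AU-15330. Gpi1 and Tpi1, whose windows are not shown, also hold no core and were lower with each drug. The lines are written 5′ to 3′ on the strand of the gene.
Slc2a1: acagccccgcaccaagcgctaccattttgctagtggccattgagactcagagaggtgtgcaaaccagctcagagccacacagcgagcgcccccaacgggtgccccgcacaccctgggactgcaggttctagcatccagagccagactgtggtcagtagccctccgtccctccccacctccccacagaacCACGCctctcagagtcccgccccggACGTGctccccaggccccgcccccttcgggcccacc
Pgk1: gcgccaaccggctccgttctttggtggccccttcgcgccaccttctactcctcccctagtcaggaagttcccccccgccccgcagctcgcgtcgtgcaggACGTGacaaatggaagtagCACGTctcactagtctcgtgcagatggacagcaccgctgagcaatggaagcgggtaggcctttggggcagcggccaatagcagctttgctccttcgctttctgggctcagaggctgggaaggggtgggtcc
Adm: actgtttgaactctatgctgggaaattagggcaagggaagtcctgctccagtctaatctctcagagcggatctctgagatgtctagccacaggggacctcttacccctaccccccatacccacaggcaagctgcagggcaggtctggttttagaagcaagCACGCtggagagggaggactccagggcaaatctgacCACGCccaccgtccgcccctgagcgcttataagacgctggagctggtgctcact
Ankrd37: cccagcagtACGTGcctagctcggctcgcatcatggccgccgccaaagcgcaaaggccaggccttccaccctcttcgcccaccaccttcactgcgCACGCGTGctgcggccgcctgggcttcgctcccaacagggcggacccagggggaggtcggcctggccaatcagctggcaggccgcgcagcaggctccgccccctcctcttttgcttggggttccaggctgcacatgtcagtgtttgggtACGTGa
P4ha2: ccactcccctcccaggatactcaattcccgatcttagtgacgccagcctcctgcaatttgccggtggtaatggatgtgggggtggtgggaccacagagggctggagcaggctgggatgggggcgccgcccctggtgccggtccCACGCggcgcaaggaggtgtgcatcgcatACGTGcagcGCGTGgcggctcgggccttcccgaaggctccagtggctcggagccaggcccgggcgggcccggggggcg
Pdk1: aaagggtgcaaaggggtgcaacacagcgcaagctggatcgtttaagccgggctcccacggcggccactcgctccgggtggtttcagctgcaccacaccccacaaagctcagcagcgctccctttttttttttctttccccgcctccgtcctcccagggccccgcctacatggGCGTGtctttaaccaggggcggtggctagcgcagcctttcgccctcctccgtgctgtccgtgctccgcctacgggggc
Eno2: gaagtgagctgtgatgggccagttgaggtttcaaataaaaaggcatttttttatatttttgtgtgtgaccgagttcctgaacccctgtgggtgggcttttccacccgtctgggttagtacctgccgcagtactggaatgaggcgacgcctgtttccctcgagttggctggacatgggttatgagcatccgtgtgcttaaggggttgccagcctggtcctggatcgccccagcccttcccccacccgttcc

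Glucose enters and lactate leaves the cell through transporters, and Slc2a1, which encodes GLUT1 and has 2 cores in its window, gave clear steps. Its level ran from 152 to 260.5 CPM with DMSO (median 207), 58.7 to 89.1 with cisplatin (median 70.01), 25.9 to 38.2 with AU-15330 (median 30.01) and 24.8 to 33.9 with the combination (median 28.5). DMSO, cisplatin and AU-15330 did not overlap, while the combination overlapped AU-15330. Slc2a1 was 2.87-fold lower with cisplatin (log2 fold change -1.52 ± 0.13, adjusted p = 1.8e-10) and 6.45-fold lower with AU-15330 (-2.69 ± 0.13, adjusted p = 7.47e-16). It fell again when AU-15330 was added to cisplatin (-1.29 ± 0.13, adjusted p = 1.42e-09), whereas the combination was not called against AU-15330 (-0.12 ± 0.13, adjusted p = 0.487). Slc2a3, which encodes GLUT3, was present at much lower levels, from 3.46 to 5.26 CPM with DMSO (median 3.81), 3.09 to 4.25 with cisplatin (median 3.65), 1.57 to 2.07 with AU-15330 (median 1.88) and 1.73 to 2.77 with the combination (median 2.55). Here cisplatin overlapped DMSO, and AU-15330 lay below both. Slc2a3 fell with AU-15330 (-1.12 ± 0.14, adjusted p = 7.23e-08) and was not called with cisplatin (-0.14 ± 0.13, adjusted p = 0.405). It was lower with the combination than with cisplatin (-0.58 ± 0.13) and higher than with AU-15330 (0.40 ± 0.14, adjusted p = 0.0241), a call lost without replicate 1 (adjusted p = 0.095), replicate 2 (0.0563), replicate 5 (0.104) or replicate 6 (0.123) and within both sets of replicates (0.135 and 0.11).

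Slc16a3 encodes MCT4, which exports lactate, and it was close to the detection limit, at 1.16 to 3.84 CPM with DMSO (median 2.28), 0.329 to 0.759 with cisplatin (median 0.668), 0.261 to 1.1 with AU-15330 (median 0.492) and 0.287 to 0.545 with the combination (median 0.425). The DMSO libraries, with 26 to 72 counts, lay above all libraries with cisplatin or AU-15330, while the 3 drug-treated groups overlapped. It fell with cisplatin (-1.99 ± 0.29, adjusted p = 2.09e-06) and with AU-15330 (-2.12 ± 0.29, adjusted p = 3.62e-07). Slc16a1, the gene of the lactate carrier MCT1 and not one of the 36, was expressed at 299 to 499 CPM with DMSO. Its log2 fold change was -2.39 ± 0.10 with AU-15330 (adjusted p = 2.68e-17) and -0.084 ± 0.09 with cisplatin (adjusted p = 0.474).

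Upper glycolysis, from glucose to the triose phosphates, was represented by 10 genes, of which cisplatin lowered 8 and raised 1 and AU-15330 lowered 7 and raised 3. Of all tested genes, 25.7% were lower and 26.0% higher with cisplatin, and 37.2% and 36.2% with AU-15330. Within replicates 4 to 6 AU-15330 lowered 5 of the 10 and raised 3, beside 4391 and 4210 of the 12941 tested genes. Hexokinase 2 traps glucose as glucose 6-phosphate, and its gene Hk2 ran from 197 to 292 CPM with DMSO (median 237), 178 to 227 with cisplatin (median 198), 24.9 to 30.9 with AU-15330 (median 28.1) and 35.5 to 46.4 with the combination (median 42.8). AU-15330 and the combination lay far below DMSO and cisplatin, and the combination lay above AU-15330 without overlap. Hk2 was 8.63-fold lower with AU-15330 (-3.11 ± 0.10, adjusted p = 1.67e-19) and 4.78-fold lower when AU-15330 was added to cisplatin (-2.26 ± 0.10, adjusted p = 6.6e-17). With cisplatin alone its decrease was small (-0.27 ± 0.09, adjusted p = 0.014) and was lost without replicate 5 (adjusted p = 0.0529) and within replicates 1 to 3 (adjusted p = 0.185). The housekeeping isozyme Hk1 fell in all 4 comparisons between groups, by 0.21 with cisplatin, 0.31 with AU-15330, 0.64 for the combination against cisplatin and 0.54 against AU-15330 on the log2 scale. The cisplatin call of Hk1 was lost without replicate 3 (adjusted p = 0.0739), and within replicates 4 to 6 neither the cisplatin call nor the AU-15330 call held (adjusted p = 0.0657 and 0.16).

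Gpi1, the isomerase that turns glucose 6-phosphate into fructose 6-phosphate, ranged from 869 to 4107 CPM with DMSO (median 1672), 403 to 805 with cisplatin (median 553), 444 to 463 with AU-15330 (median 451) and 390.2 to 451 with the combination (median 428). DMSO lay above the other groups, which overlapped, and it was split, with replicates 1 to 3 at 2343 to 4107 CPM and replicates 4 to 6 at 869 to 1002 CPM. Gpi1 fell with cisplatin (-1.84 ± 0.29, adjusted p = 9.04e-06) and AU-15330 (-2.21 ± 0.30, adjusted p = 2.4e-07). The log2 fold change with AU-15330 was -2.85 within replicates 1 to 3 and -1.03 within replicates 4 to 6, both called. The combination was not called against cisplatin (-0.45 ± 0.28, adjusted p = 0.161), though it was within replicates 1 to 3 (-0.84, adjusted p = 9.17e-06), against 0.032 within replicates 4 to 6 (adjusted p = 0.847).

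Phosphofructokinase commits sugar to glycolysis and has liver, muscle and platelet subunits, encoded by Pfkl, Pfkm and Pfkp. Pfkl ran from 318 to 590.0 CPM with DMSO (median 459), 169.7 to 292 with cisplatin (median 234), 152 to 194 with AU-15330 (median 181) and 107 to 120.1 with the combination (median 115). Each drug lay below DMSO and the combination below each drug, without overlap. The decreases of Pfkl were -0.99 ± 0.14 with cisplatin (adjusted p = 2.05e-06), -1.35 ± 0.14 with AU-15330 (3.7e-09), -1.01 ± 0.14 for the combination against cisplatin (6.22e-07) and -0.65 ± 0.14 against AU-15330 (0.000634). Pfkp ran from 158 to 344 CPM with DMSO (median 194), 85.2 to 141 with cisplatin (median 107), 62.6 to 81 with AU-15330 (median 63.8) and 60.6 to 68.5 with the combination (median 65.6). Neither drug overlapped DMSO, and the combination lay below cisplatin and overlapped AU-15330. It fell with cisplatin (-1.05 ± 0.15, adjusted p = 2.88e-06), with AU-15330 (-1.74 ± 0.16, adjusted p = 2e-10) and with the combination against cisplatin (-0.76 ± 0.15, adjusted p = 0.000108). Pfkm went the other way with AU-15330, from 132 to 179 CPM with DMSO to 238 to 277 CPM (0.78 ± 0.08, adjusted p = 1.87e-09). Pfkm was also higher with the combination than with cisplatin (0.63 ± 0.08), while cisplatin lowered it (-0.47 ± 0.08).

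The bifunctional enzymes that set fructose 2,6-bisphosphate, the activator of phosphofructokinase, did not share the decrease. Pfkfb3 was the 1 gene that cisplatin raised (0.38 ± 0.12, adjusted p = 0.0106), and it was called higher in all 4 comparisons between groups, reaching 114 to 128 CPM with the combination from 37.6 to 69.4 CPM with DMSO. Within replicates 1 to 3 neither single drug was called for Pfkfb3 (adjusted p = 0.0979 and 0.35). Pfkfb4 rose with AU-15330 (0.54 ± 0.10, adjusted p = 1.61e-05) and when AU-15330 was added to cisplatin (0.36 ± 0.10, adjusted p = 0.00156), and was not called with cisplatin (-0.034 ± 0.10, adjusted p = 0.796).

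Aldolase splits fructose 1,6-bisphosphate, and its main form Aldoa was among the most abundant of the 36 transcripts, at 1715 to 4798 CPM with DMSO (median 2894), 853 to 1582 with cisplatin (median 1192), 1802 to 2119 with AU-15330 (median 1882) and 1346 to 1473 with the combination (median 1413). Cisplatin lay below DMSO without overlap, AU-15330 overlapped DMSO, and the combination overlapped cisplatin and lay below AU-15330. Aldoa fell with cisplatin (-1.32 ± 0.20, adjusted p = 5.03e-06) and with AU-15330 (-0.65 ± 0.20, adjusted p = 0.00466). The AU-15330 call was lost within replicates 4 to 6 (-0.074, adjusted p = 0.574). Aldoc, the brain-type aldolase, ran from 69.5 to 258 CPM with DMSO (median 146), 23.1 to 55.6 with cisplatin (median 31.9), 49.3 to 54.8 with AU-15330 (median 52.2) and 23.1 to 32 with the combination (median 30.4). DMSO lay above the 3 other groups and the combination lay below AU-15330. Aldoc fell with cisplatin (-2.09 ± 0.28, adjusted p = 7.63e-07) and with AU-15330 (-1.57 ± 0.27, adjusted p = 1.36e-05), and was lower with the combination than with AU-15330 (-0.85 ± 0.28, adjusted p = 0.0154). Against cisplatin, the combination changed Aldoc by -0.86 within replicates 1 to 3 and by 0.32 within replicates 4 to 6, both called.

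Lower glycolysis, from triose phosphates to pyruvate, was represented by 7 genes. All 7 fell with cisplatin, whereas AU-15330 lowered 6 and raised Eno2, where 25.7% and 37.2% of all tested genes were lower. Within replicates 4 to 6 AU-15330 lowered 2 of the 7 and raised 2 (median -0.046), where 4391 and 4210 of the 12941 tested genes were lower and higher. Several of these genes have near-identical copies elsewhere: of the 70-base stretches in their transcripts, 53.0% of Pgk1, 35.2% of Pgam1, 23.6% of Eno1, 23% of Gapdh and 19.2% of Pkm also occurred in other annotated genes, so their counts are uncertain by the reads that the counting step discarded or shared. Gapdh, the glyceraldehyde 3-phosphate dehydrogenase often used as a reference gene, ran from 1075 to 4676 CPM with DMSO (median 2065), 524 to 1020.5 with cisplatin (median 747), 1338 to 1415 with AU-15330 (median 1372) and 1103 to 1252 with the combination (median 1183). Cisplatin lay below every other group, and AU-15330 lay inside the DMSO range. Gapdh fell 3.11-fold with cisplatin (-1.64 ± 0.28, adjusted p = 2.03e-05), a decrease called within both sets of replicates. Its decrease with AU-15330 (-0.80 ± 0.27, adjusted p = 0.01) was -1.43 within replicates 1 to 3 and turned to an increase of 0.30 within replicates 4 to 6 (adjusted p = 0.027), and it was lost without replicate 2 (-0.67, adjusted p = 0.0539) or replicate 3 (-0.48, adjusted p = 0.112). Gapdh was higher with the combination than with cisplatin (0.62 ± 0.27, adjusted p = 0.0451), a call lost without replicate 1, 4, 5 or 6 (adjusted p = 0.0979, 0.101, 0.106 and 0.103) and within replicates 1 to 3 (0.27, adjusted p = 0.0526).

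Pgk1 encodes phosphoglycerate kinase, the first step that yields ATP, and its window above holds 2 cores. Its level ran from 274 to 1083 CPM with DMSO (median 529), 105 to 262 with cisplatin (median 188), 88.1 to 129 with AU-15330 (median 115) and 108 to 136 with the combination (median 119). All drug-treated libraries lay below all DMSO libraries, and the combination overlapped both single drugs. Pgk1 was 3.23-fold lower with cisplatin (-1.69 ± 0.28, adjusted p = 1.27e-05) and 5.27-fold lower with AU-15330 (-2.40 ± 0.28, adjusted p = 2.73e-08), in both sets of replicates. Its decrease with the combination against cisplatin was at the threshold (-0.61 ± 0.27, adjusted p = 0.0486) and was lost without replicate 1, 2, 3 or 5 (adjusted p = 0.0851, 0.173, 0.105 and 0.0542), and within replicates 4 to 6 it was -0.062 (adjusted p = 0.737). Eno2, the neuronal enolase, ran from 5.46 to 9.8 CPM with DMSO (median 7.48), 3.36 to 6.09 with cisplatin (median 5.46), 11.7 to 16.8 with AU-15330 (median 14) and 9.3 to 13.8 with the combination (median 13). AU-15330 lay above DMSO and the combination above cisplatin, while cisplatin overlapped DMSO. Eno2 rose with AU-15330 (0.93 ± 0.14, adjusted p = 2.29e-06) and when AU-15330 was added to cisplatin (1.29 ± 0.15, adjusted p = 1.74e-08), and fell with cisplatin (-0.54 ± 0.15, adjusted p = 0.00358), where the call was lost within replicates 1 to 3 (adjusted p = 0.09).

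The other 4 genes of lower glycolysis were triose phosphate isomerase (Tpi1), phosphoglycerate mutase (Pgam1), the main enolase (Eno1) and pyruvate kinase M (Pkm). Their log2 fold changes with cisplatin lay between -0.83 (Tpi1) and -0.62 (Eno1), and with AU-15330 between -0.88 (Pgam1) and -0.50 (Eno1). With AU-15330, within replicates 4 to 6, Tpi1 (-0.024), Pgam1 (-0.23) and Eno1 (-0.046) were not called, and Pkm was (-0.30, adjusted p = 0.0109). Leaving out a replicate number also ended the AU-15330 call of Tpi1 (without 1 or 3, adjusted p = 0.0606 and 0.0939) and of Eno1 (without 2 or 3, adjusted p = 0.0507 and 0.102). Adding AU-15330 to cisplatin left Tpi1, Pgam1, Eno1 and Pkm uncalled over the 6 replicates. Within replicates 4 to 6, Tpi1 (0.76, adjusted p = 5.8e-06) and Eno1 (0.58, adjusted p = 0.000285) were higher. Pkm was called in both sets with opposite signs, -0.32 within replicates 1 to 3 (adjusted p = 0.00775) and 0.33 within replicates 4 to 6 (adjusted p = 0.006). Between the combination and AU-15330 alone, none of the 7 genes of lower glycolysis was called, although every combination library lay below every AU-15330 library for Gapdh: edgeR and DESeq2 each called 0, and 0 had an unadjusted p under 0.05, with log2 fold changes between -0.22 and 0.15.

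At the end of the pathway, Ldha encodes the lactate dehydrogenase subunit that favors lactate, and its level ran from 720.2 to 1711 CPM with DMSO (median 1162), 381 to 875 with cisplatin (median 664), 363 to 477 with AU-15330 (median 393) and 418 to 531 with the combination (median 448). AU-15330 lay below DMSO without overlap, and cisplatin overlapped DMSO. Ldha fell with cisplatin (-0.91 ± 0.21, adjusted p = 0.000969) and with AU-15330 (-1.56 ± 0.22, adjusted p = 4.84e-07), in both sets of replicates. The combination against cisplatin sat on the threshold (-0.48 ± 0.21, adjusted p = 0.05003) and was past it without replicate 4 (adjusted p = 0.0283), without replicate 6 (0.0172) and in DESeq2 (0.0273). It was -0.87 within replicates 1 to 3 (adjusted p = 1.66e-06) and turned to 0.077 within replicates 4 to 6 (adjusted p = 0.597). Pdk1 encodes a kinase that shuts pyruvate dehydrogenase and so keeps pyruvate out of mitochondria. It ran from 207 to 538 CPM with DMSO (median 365), 49.95 to 184 with cisplatin (median 107), 121 to 143 with AU-15330 (median 128) and 48.1 to 67.1 with the combination (median 64.2). DMSO lay above the other groups, and the combination lay below AU-15330 without overlap. Pdk1 fell with cisplatin (-1.73 ± 0.26, adjusted p = 4.52e-06), with AU-15330 (-1.50 ± 0.26, adjusted p = 1.11e-05) and with the combination against AU-15330 (-1.09 ± 0.26, adjusted p = 0.0014). Against cisplatin the combination was lower over all replicates (-0.87 ± 0.26, adjusted p = 0.00449) and not called within replicates 4 to 6 (-0.078, adjusted p = 0.707). Of the related kinase Pdk4, which is not one of the 36, levels rose with AU-15330 (1.60 ± 0.19, adjusted p = 4.83e-08).

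Larger changes were seen among the low-oxygen targets that are secreted or linked to stress. Vegfa, the main growth factor for blood vessels, ran from 936 to 1446 CPM with DMSO (median 1069), 185 to 444 with cisplatin (median 276), 97.7 to 121 with AU-15330 (median 117) and 88.8 to 109 with the combination (median 104). DMSO, cisplatin and AU-15330 were separate, and the combination overlapped AU-15330. It was 3.78-fold lower with cisplatin (-1.92 ± 0.16, adjusted p = 3.32e-10), 10.03-fold lower with AU-15330 (-3.33 ± 0.17, adjusted p = 2.75e-15) and 2.96-fold lower with the combination than with cisplatin (-1.57 ± 0.16, adjusted p = 3.52e-09). Adm, which encodes the vasodilator peptide adrenomedullin, had 13 to 34 counts per library with DMSO, and 0 to 7 with cisplatin, 0 to 3 with AU-15330 and 0 to 3 with the combination. As CPM it ran from 0.582 to 1.64 CPM with DMSO (median 1.22), 0 to 0.318 with cisplatin (median 0.0636), 0 to 0.157 with AU-15330 (median 0.115) and 0 to 0.139 with the combination (median 0.0652). Adm fell with both single drugs (-3.49 ± 0.49 and -3.60 ± 0.51, adjusted p = 1.72e-06 and 5.78e-07), but with AU-15330 and the combination it was at or below 3 counts in every library, and with cisplatin in 4 of 6, so the fitted sizes depend on how such counts are modelled.

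Ndrg1, a stress-response gene strongly induced by low oxygen, ran from 367 to 798 CPM with DMSO (median 559), 147 to 285 with cisplatin (median 196), 5.86 to 11.1 with AU-15330 (median 7.4) and 15.2 to 26.8 with the combination (median 21.8). The 4 groups did not overlap in any of the 4 comparisons, and AU-15330 was the lowest. Ndrg1 was 73.6-fold lower with AU-15330 (-6.20 ± 0.25, adjusted p = 1.4e-17), 2.7-fold lower with cisplatin (-1.43 ± 0.20, adjusted p = 1.33e-06) and 10.1-fold lower with the combination than with cisplatin (-3.33 ± 0.22, adjusted p = 3.64e-13). The combination was 2.71-fold above AU-15330 alone (1.44 ± 0.22, adjusted p = 9.03e-06). Ero1l encodes the oxidase that forms disulfide bonds in the endoplasmic reticulum. It ran from 445 to 1709.8 CPM with DMSO (median 561), 64.9 to 196 with cisplatin (median 94.4), 32.1 to 43.1 with AU-15330 (median 40.7) and 44.7 to 55.8 with the combination (median 46.5). DMSO lay above all other groups, and within DMSO, replicates 2 and 3 stood at 1709.8 and 1623 CPM while the other 4 libraries were at 445 to 581 CPM. Ero1l was 8.06-fold lower with cisplatin (-3.01 ± 0.32, adjusted p = 1.41e-08) and 22.7-fold lower with AU-15330 (-4.50 ± 0.34, adjusted p = 5.9e-12). Within replicates 4 to 6 its log2 fold changes were -2.79 and -3.62, both called.

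Bhlhe40, a transcriptional repressor of the circadian and low-oxygen responses, differed from these. It fell with cisplatin (-0.60 ± 0.16, adjusted p = 0.00377), was higher with the combination than with cisplatin (0.53 ± 0.16, adjusted p = 0.00654) and was not called with AU-15330 (0.13 ± 0.16, adjusted p = 0.481). The cisplatin decrease was not called within replicates 4 to 6 (-0.19, adjusted p = 0.335). For AU-15330 the 2 sets of replicates had opposite signs, -0.38 within replicates 1 to 3 and 0.76 within replicates 4 to 6, both called (adjusted p = 0.0293 and 0.000119), and without replicate 2 it was called higher (adjusted p = 0.0434).

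**Figure D3:**
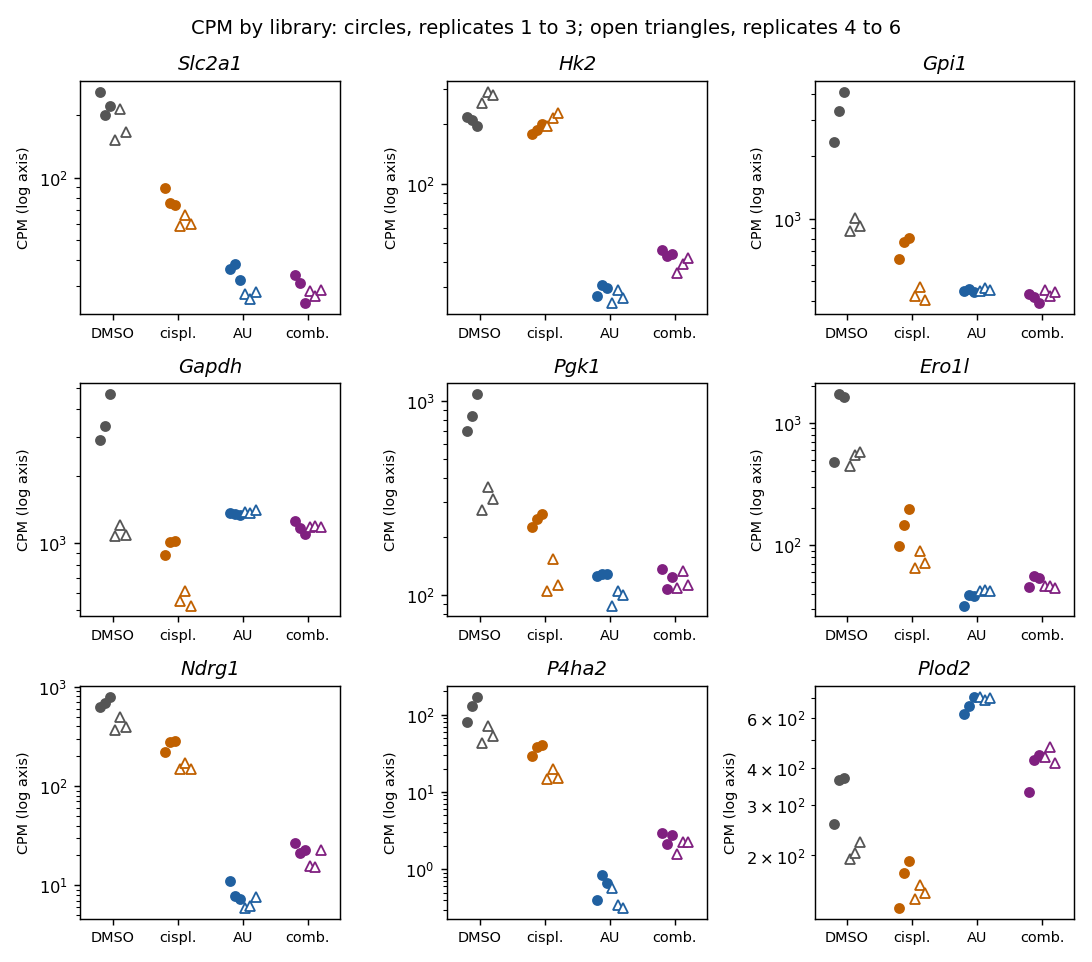
CPM of 9 genes (log axis, a separate scale in each panel) by treatment: DMSO, cisplatin (cispl.), AU-15330 (AU) and the combination (comb.). Each point is a library, filled circles are replicates 1 to 3 and open triangles are replicates 4 to 6. Hk2, Ndrg1 and P4ha2 are lowest with AU-15330 (median 28.1, 7.4 and 0.489 CPM), Gapdh is lowest with cisplatin (median 747) and Plod2 is highest with AU-15330 (median 696).

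Among the mitochondrial targets, Higd1a, a respiratory-chain assembly factor, ran from 19.2 to 45.6 CPM with DMSO (median 25.8), 12.9 to 26.6 with cisplatin (median 18.2), 7.19 to 10.4 with AU-15330 (median 8.59) and 10.1 to 15.1 with the combination (median 12.3). AU-15330 lay below DMSO without overlap, and cisplatin overlapped DMSO. Higd1a fell with AU-15330 (-1.75 ± 0.21, adjusted p = 4.31e-08) and with cisplatin (-0.68 ± 0.20, adjusted p = 0.0068), the latter lost without replicate 3 (adjusted p = 0.0566). Its decrease with the combination against cisplatin (-0.57 ± 0.21, adjusted p = 0.0159) was lost without replicate 2 (adjusted p = 0.0907) and within replicates 4 to 6 (-0.14, adjusted p = 0.463). Bnip3l, a receptor for the removal of mitochondria, fell with cisplatin (-0.71 ± 0.09) and with AU-15330 (-0.56 ± 0.09). Its relative Bnip3 never exceeded 1.36 CPM and was not tested; fitted without the low-count filter, its log2 fold change was -1.77 with cisplatin (adjusted p = 0.0206) and -2.11 with AU-15330 (adjusted p = 0.00542), and 36.6% of its 70-base stretches occurred in other genes.

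Collagen is hydroxylated before it folds, on proline by the enzymes of P4ha1 and P4ha2 and on lysine by those of Plod1 and Plod2. P4ha2 ran from 42.6 to 171 CPM with DMSO (median 75.4), 14.6 to 40.4 with cisplatin (median 24.4), 0.313 to 0.837 with AU-15330 (median 0.489) and 1.59 to 2.98 with the combination (median 2.26). The 4 groups were separate in all 4 comparisons, with AU-15330 the lowest at 6 to 19 counts per library, against 952 to 3544 counts with DMSO. P4ha2 was 169.6-fold lower with AU-15330 (-7.41 ± 0.42, adjusted p = 1.48e-14), 3.47-fold lower with cisplatin (-1.79 ± 0.28, adjusted p = 7.95e-06) and 11.2-fold lower with the combination than with cisplatin (-3.48 ± 0.34, adjusted p = 9.79e-10). The combination stood 4.38-fold above AU-15330 (2.13 ± 0.49, adjusted p = 0.00111). P4ha1, by contrast, ran from 159 to 313 CPM with DMSO (median 206), 66.3 to 123 with cisplatin (median 88.6), 95.9 to 115 with AU-15330 (median 102) and 82 to 89.6 with the combination (median 87.7). All drug-treated libraries lay below DMSO, and the combination lay below AU-15330 without reaching a call. Its decreases were -1.28 ± 0.15 with cisplatin (adjusted p = 9.82e-08) and -1.13 ± 0.15 with AU-15330 (adjusted p = 2.27e-07).

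Plod2, the lysyl hydroxylase of collagen telopeptides, was the gene of the 36 with the largest increase with AU-15330. It ran from 195 to 372 CPM with DMSO (median 239.9), 131 to 191 with cisplatin (median 153), 617 to 709 with AU-15330 (median 696) and 332 to 475 with the combination (median 432). The order from low to high was cisplatin, DMSO, the combination and AU-15330, without overlap in the 4 comparisons, although replicates 2 and 3 of DMSO reached above the lowest combination library. The DMSO group was not compared with the combination. Plod2 was 2.53-fold higher with AU-15330 (1.34 ± 0.14, adjusted p = 2.03e-09) and 2.69-fold higher with the combination than with cisplatin (1.43 ± 0.14, adjusted p = 8.02e-10), and it fell with cisplatin (-0.78 ± 0.14, adjusted p = 3.03e-05). Plod1 fell with AU-15330 (-0.53 ± 0.08, adjusted p = 6.59e-07) and when AU-15330 was added to cisplatin (-0.47 ± 0.08, adjusted p = 4.28e-06), and was not called with cisplatin (-0.10 ± 0.07, adjusted p = 0.283).

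Of the remaining genes, Ankrd37, a small ankyrin-repeat gene known as a direct HIF-1 target, ran from 8.19 to 22.5 CPM with DMSO (median 17.5), 0.785 to 3.96 with cisplatin (median 2.28), 0.945 to 1.88 with AU-15330 (median 1.35) and 0.658 to 1.53 with the combination (median 0.982). DMSO lay above every other group, and the drug-treated groups overlapped. Ankrd37 was 7.66-fold lower with cisplatin (-2.94 ± 0.30, adjusted p = 7.73e-09) and 12.3-fold lower with AU-15330 (-3.62 ± 0.32, adjusted p = 1.02e-10). Its decrease with the combination against cisplatin (-1.06 ± 0.35, adjusted p = 0.00874) was lost without replicate 2 (-0.69, adjusted p = 0.0895) and within replicates 4 to 6 (-0.40, adjusted p = 0.365). Kdm3a, a histone demethylase that HIF-1 also induces, rose with AU-15330 (0.57 ± 0.06, adjusted p = 6e-09) and when AU-15330 was added to cisplatin (0.38 ± 0.06, adjusted p = 6.2e-06), and was not called with cisplatin (-0.08 ± 0.06, adjusted p = 0.285).

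**Figure D4:**
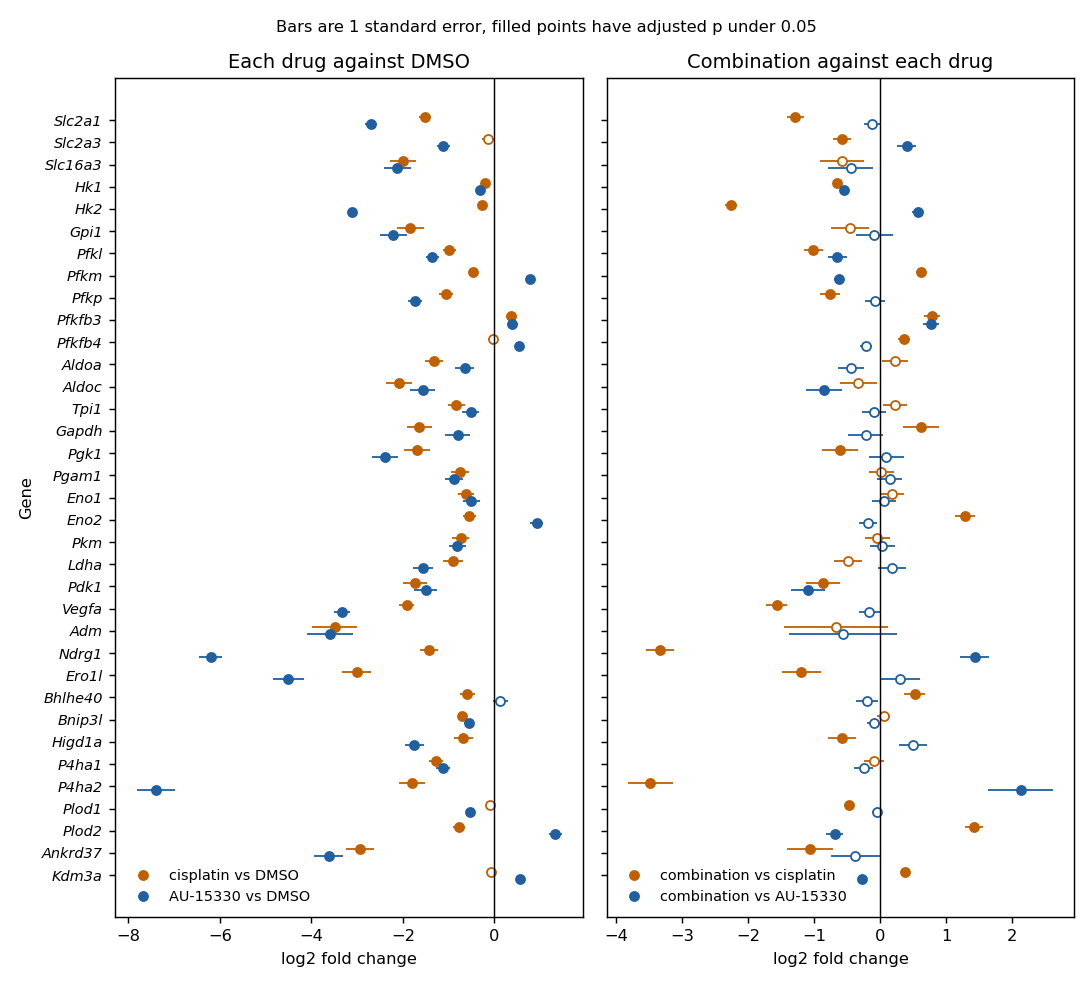
Log2 fold changes (x axis) of the 35 tested genes (y axis), with bars of 1 standard error. Left, cisplatin (orange) and AU-15330 (blue) against DMSO; right, the combination against cisplatin (orange) and against AU-15330 (blue); filled points were called at an adjusted p under 0.05. On the left 30 orange and 28 blue points are called below 0, and the 2 panels have different x scales.

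Levels of isozymes were then compared per kilobase of the union of all annotated exons, so that genes of unlike length could be set side by side. That union was 3340 bases for Pfkm, 6675 for Pfkl and 13401 for Pfkp. It can exceed the length of the transcripts expressed, so the size of each share depends on the annotation. Hk2 made up a median of 53.7% of the hexokinase transcripts (Hk1 and Hk2) with DMSO and 52.2% with cisplatin, but 14.7% with AU-15330 and 27.1% with the combination. Pfkm made up 35.2% of the phosphofructokinase transcripts with DMSO, 43.9% with cisplatin, 71.2% with AU-15330 and 70.2% with the combination. P4ha2 went from 19.6% of the pair P4ha1 and P4ha2 with DMSO to 15.2% with cisplatin, 0.332% with AU-15330 and 1.67% with the combination. Plod2 went from 86.7% of the pair Plod1 and Plod2 to 80.3%, 96.3% and 94.3%. The other 4 families were dominated by 1 form throughout. Aldoc was a median of 5.34% of aldolase with DMSO, 3.16% with cisplatin, 3.01% with AU-15330 and 2.34% with the combination, and Eno2 was 1.51%, 1.32%, 3.61% and 3.23% of enolase. Slc2a3 was 0.991%, 2.54%, 2.77% and 4.11% of the pair Slc2a1 and Slc2a3, and Pfkfb4 was 13.9%, 11%, 15.1% and 8.28% of the pair Pfkfb3 and Pfkfb4. These shares are a description, and no test of them is reported, since the responses of the single genes were known.

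Next, the effect of AU-15330 without cisplatin was compared with its effect in the presence of cisplatin, as the interaction term of the same fit. The DMSO libraries enter this term with a plus sign, and the comparisons of each drug with DMSO with a minus sign. The interaction is therefore not independent of those comparisons. The difference (effect with cisplatin minus effect without) was above 0 and called for 24 of the 35 genes and below 0 for 1, Hk1, against 17.9% and 15.8% of all tested genes (33.7% together). Its median was 0.88 for the 35 genes and 0.0065 over all genes. It was called above 0 for 23 genes within replicates 1 to 3 and for 22 within replicates 4 to 6 (1636 and 1696 of all tested genes), and for 17 to 23 when any single replicate number was left out. Leaving Adm aside, the largest differences were those of P4ha2 (3.93 ± 0.56, adjusted p = 6.7e-06), Ero1l (3.31 ± 0.43, adjusted p = 1.77e-06), Ndrg1 (2.87 ± 0.30, adjusted p = 4.56e-08) and Ankrd37 (2.56 ± 0.47, adjusted p = 0.000169). The count of 24 includes Adm, which was near the count floor in all 3 drug-treated groups and so could hardly fall further after cisplatin. Its call was lost without replicate 1, 3, 5 or 6 (adjusted p = 0.114, 0.075, 0.111 and 0.151), that of Eno1 without any 1 of the 6 numbers and that of Slc2a3 without 1, 2, 3, 5 or 6. Slc2a1 may serve as an example, being at a median of 207 CPM with DMSO and 70.01 with cisplatin, and 30.01 with AU-15330 and 28.5 with both. Genes without a called difference included Pfkm (-0.15 ± 0.11), Eno2 (0.36 ± 0.20), Plod2 (0.09 ± 0.19) and Kdm3a (-0.19 ± 0.09), which AU-15330 raised, and Kdm3a was called below 0 by DESeq2 (adjusted p = 0.0206). Pfkl, Pdk1 and Plod1, which AU-15330 lowered, had no called difference either. Within replicates 4 to 6, Pfkl (0.44, adjusted p = 0.0409) and Pdk1 (0.81, adjusted p = 0.0157) were called above 0.

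**Figure D5:**
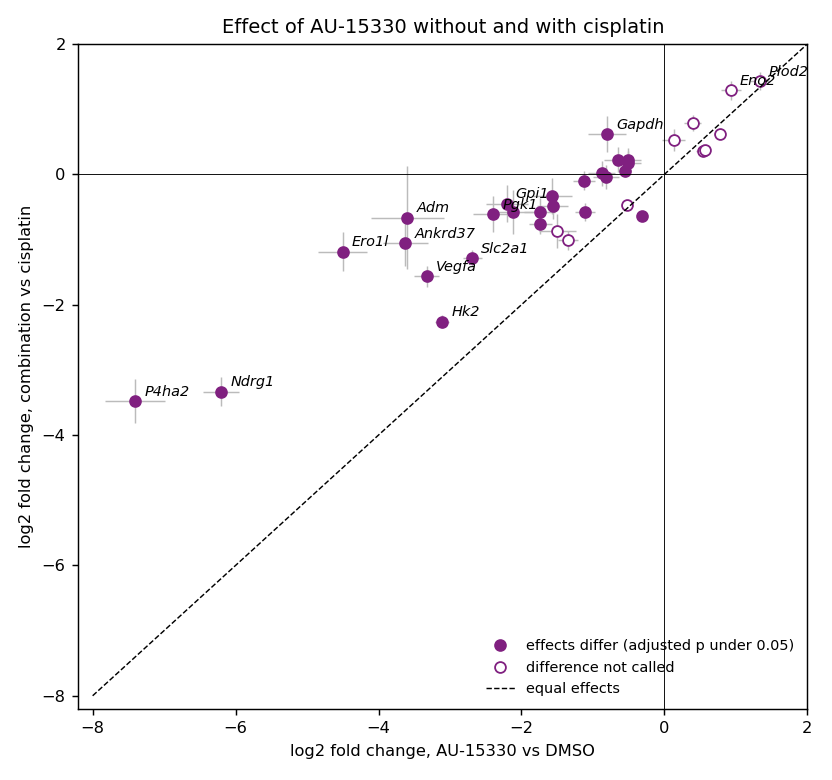
Log2 fold change of AU-15330 against DMSO (x axis) and of the combination against cisplatin (y axis) for the 35 tested genes, with bars of 1 standard error. The dashed line marks equal effects, and filled points are genes whose 2 effects differed at an adjusted p under 0.05. Of the 25 filled points 24 lie above the line, with P4ha2 and Ndrg1 farthest to the left at -7.41 and -6.20.

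The transcripts of the HIF factors and of the enzymes that sense oxygen were examined beside the targets. Hif1a, the oxygen-regulated subunit, was at 388 to 583 CPM with DMSO and fell with cisplatin (-0.44 ± 0.09, adjusted p = 0.00019), with AU-15330 (-0.85 ± 0.09, adjusted p = 3.96e-09) and with the combination against cisplatin (-0.24 ± 0.09, adjusted p = 0.0215). Its partner Arnt fell with cisplatin (-0.39 ± 0.09) and rose with AU-15330 (0.21 ± 0.09, adjusted p = 0.0399). Epas1, which encodes HIF-2α, and Vhl, which encodes the ligase that recognises hydroxylated HIF, were called in none of the 5 comparisons, with log2 fold changes between -0.20 and 0.079 and between -0.17 and 0.081. Hif3a, which encodes a HIF subunit with forms that oppose the others, was at most 0.433 CPM with DMSO and rose to 5.36 to 8.93 CPM with AU-15330 (5.58 ± 0.35, adjusted p = 1.09e-13), a fold set against libraries near the 3-count floor.

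Egln1, the main HIF prolyl hydroxylase and itself a HIF target, fell from a median of 332 CPM with DMSO to 163 with cisplatin (-1.02 ± 0.12, adjusted p = 9.11e-08) and 84.1 with AU-15330 (-2.07 ± 0.12, adjusted p = 4.94e-14). Egln2 was called only for the combination against cisplatin (-0.29 ± 0.09, adjusted p = 0.00452). Hif1an, the asparaginyl hydroxylase, was lower with AU-15330 (-0.24 ± 0.09, adjusted p = 0.0166). Arnt2 rose with cisplatin (3.52 ± 0.58, adjusted p = 1.41e-05) but never exceeded 1.12 CPM.

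A further list of 34 known HIF targets outside the 36 genes, of which 31 were tested, was counted in the same fit. Cisplatin lowered 19 and raised 3 (median log2 fold change -0.48), AU-15330 lowered 21 and raised 7 (median -1.19), the combination lowered 17 and raised 8 against cisplatin, and it lowered 4 and raised 11 against AU-15330. The shares of all tested genes called lower and higher were, in the same order, 25.7% and 26.0%, 37.2% and 36.2%, 32.7% and 35.4%, and 19.5% and 22.2%. The interaction was called above 0 for 16 and below 0 for 1, beside 17.9% and 15.8% of all tested genes. Egln3, the most oxygen-responsive prolyl hydroxylase, was 18.1-fold lower with AU-15330 (-4.18 ± 0.15) and 2.13-fold lower with cisplatin (-1.09 ± 0.13). Ak4, a mitochondrial adenylate kinase, fell by 1.69 with cisplatin and 3.38 with AU-15330 on the log2 scale. Hilpda, a lipid droplet protein, fell by 1.18 and 1.47, Gbe1, the glycogen branching enzyme, by 2.19 and 1.23, and the mitochondrial protein gene Fam162a by 1.36 and 1.26. With AU-15330, the median size of the log2 fold change over all tested genes was 0.53. The share of all tested genes past a size of 1 is not given here. Of the list, 17 fell by more than 1 on the log2 scale with AU-15330 and 4 rose by more than 1. Those that fell also included Flt1, a VEGF receptor (-4.56 ± 0.21), its ligand Pgf (-3.23 ± 0.51), the secreted glycoprotein Stc2 (-3.26 ± 0.29) and, between -1.60 and -1.05, Wsb1, Jmjd6, Dusp1, Insig2, Mxi1 and Kdm4b. The lysyl oxidase genes Lox and Loxl2, which crosslink collagen, had log2 fold changes with AU-15330 of -3.40 ± 0.40 and -3.06 ± 0.21. The 4 that rose were Car9, the tumor carbonic anhydrase (1.03 ± 0.23), which fell with cisplatin (-1.06 ± 0.25), the nuclear receptor gene Rora (1.46 ± 0.18), the caveolin gene Cav1 (1.33 ± 0.18), and Hmox1, heme oxygenase, which rose with AU-15330 (2.05 ± 0.15) and when AU-15330 was added to cisplatin (3.35 ± 0.16). With cisplatin, Tfrc, the transferrin receptor, fell (-1.11 ± 0.18) and Anln, a protein of cell division, rose (1.98 ± 0.19). Angptl4 rose in all 4 comparisons between groups, by 0.65 with cisplatin and 0.41 with AU-15330.

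Of 38 other genes of glycolysis, glycogen and pyruvate metabolism, 25 were tested. Cisplatin lowered 10 and raised 5 (median -0.12), and AU-15330 lowered 14 and raised 6 (median -0.20), where 25.7% and 26.0% of all tested genes were lower and higher with cisplatin and 37.2% and 36.2% with AU-15330. Those past a log2 fold change of 1 with AU-15330 were Hkdc1 (-4.88 ± 0.40), a hexokinase homologue, Slc16a1, described above, Gpd1 (-2.69 ± 0.22), a glycerol 3-phosphate dehydrogenase, Pdp1 (-1.78 ± 0.09), the phosphatase that reactivates pyruvate dehydrogenase, Pcx (-1.57 ± 0.15), pyruvate carboxylase, and Pdk4, which rose. With cisplatin only Pgm1, phosphoglucomutase, passed it (-1.27 ± 0.17, adjusted p = 5.34e-07). The glucose-sensing factor MondoA induces Txnip and Arrdc4 when glucose 6-phosphate builds up. Txnip ran from 1328 to 3834 CPM with DMSO (median 2208), 489 to 1482 with cisplatin (median 735), 74.2 to 111 with AU-15330 (median 87.1) and 79.2 to 104 with the combination (median 92). Every AU-15330 and combination library lay below every library without AU-15330. Txnip fell with cisplatin (-1.42 ± 0.25, adjusted p = 3.17e-05) and with AU-15330 (-4.77 ± 0.29, adjusted p = 4.89e-14), and Arrdc4 did as well (-0.90 ± 0.22 and -2.41 ± 0.24).

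Other gene groups moved with the treatments and are given as values beside these results. The 12 proliferation genes, among them Mki67 and Top2a, were called higher with cisplatin in 12 of 12 and with AU-15330 in 12 of 12, beside 26.0% and 36.2% of all tested genes, and their summed level was 325 to 533 CPM with DMSO, 1687 to 2303 with cisplatin, 700 to 1353 with AU-15330 and 2478 to 2966 with the combination. Of 12 chaperones of the endoplasmic reticulum, cisplatin lowered 12 and AU-15330 lowered 10, beside 25.7% and 37.2% of all tested genes. Their summed level was 3221 to 3508 CPM with cisplatin, 3213 to 3338 with AU-15330 and 3605 to 3886 with the combination, and with DMSO it was 3567 in replicate 1 and 6351 to 9011 in replicates 2 to 6. Of 15 targets of the stress factor ATF4, cisplatin lowered 14 and AU-15330 lowered 9, beside the same shares. Within replicates 1 to 3 AU-15330 lowered 6 and raised 5 of the ATF4 targets (median -0.10), beside 4305 and 4304 of the 12941 tested genes, and within replicates 4 to 6 it lowered 13 and raised 0 (median -1.02), beside 4391 and 4210. The summed level of the ATF4 targets was 1578 CPM in DMSO replicate 1 and 2614 to 3319 in the other DMSO libraries. The interaction was called above 0 for 14 of the 15 ATF4 targets (median 1.27) and 11 of the 12 chaperones (median 0.85), beside 24 of the 35 glycolysis and low-oxygen genes (median 0.88) and 17.9% of all tested genes, and below 0 for 6 of the 12 proliferation genes. Without replicate 1, cisplatin still lowered 30 and AU-15330 27 of the 35 glycolysis and low-oxygen genes, beside 3479 and 5026 of 12945 tested genes. The 7 mesothelial and epithelial genes were all called lower with AU-15330, beside 37.2% of all tested genes, with summed levels of 3512 to 5308 CPM with DMSO and 1018 to 1150 with AU-15330. The part of these groups in the changes of the glycolysis and low-oxygen genes was not tested.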

How the data were processed

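RNA from 24 libraries (4 treatments, 6 replicates) had been sequenced by the authors as single-end reads after poly(A) selection with a strand-marking kit. Per the labels' processing notes the tools were STAR 2.7.1a and DESeq2 1.36.0 and the build mm10; the counting tool, annotation and strand setting are not given in the sources used here. The deposited values were raw counts of reads per gene made by the authors, without normalization, in 48 columns, 2 lanes per library. Lanes were summed: the chi-square per degree of freedom between lanes was 1.36 to 1.46, against a median of 24.7 between libraries of a group. Columns were assigned to treatments by the labels, and no column was left unmatched.

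The 36 genes were matched by symbol. edgeR 4.0.16 in R 4.3.3 was used with TMM factors, filterByExpr (12941 of 25229 genes kept), 1 fit of all 24 libraries without a block (20 residual degrees of freedom), the quasi-likelihood F test and Benjamini-Hochberg adjustment over all tested genes, at 0.05. The script was tested on simulated data. DESeq2 1.42.0, its size factors, library totals without TMM, no low-count filter, a fold change above 1.5, a block on the replicate number and leaving out each replicate number were the alternatives; replicates 1 to 3 and 4 to 6 alone were added after the data were seen. A gene of the 36 was described in detail when it was called with a log2 fold change of at least 1 in size in at least 1 of the 5 comparisons (23 genes), and genes of other lists were named by the same size, or all for the HIF factors and the MondoA targets. The genes and lists were chosen with earlier results of these data known. Library depth was 17592588 to 25260009 counts, and floors of 3 counts cover counting error only. Promoter windows are from RefSeq (GRCm38.p6), exon lengths from GENCODE, and figures were drawn with matplotlib 3.10.9. Results for some genes of the other lists are not reported here.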

Additional observations from a re-analysis of the deposited data

Results flagged for a closer look

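Of 140 groups of 6 libraries (35 genes in 4 treatments), 6 held a library whose gap to its nearest neighbour, as a share of the whole range of the group, was above Dixon's 95% critical value, where chance alone flags about 1 group in 20, or 7 here. Slc2a3 stood at 5.26 CPM in DMSO replicate 3, with the others at 3.46 to 4.04 CPM (gap 0.680 of the range), and at 1.73 CPM in combination replicate 4, with the others at 2.4 to 2.77 CPM (0.642). Replicate 1 accounted for the other 4. Pkm was at 1706 CPM in combination replicate 1 against 1462 to 1546 CPM (0.657), Vegfa at 97.7 CPM in AU-15330 replicate 1 against 115 to 121 CPM (0.752) and at 88.8 CPM in combination replicate 1 against 102 to 109 CPM (0.638), and Ndrg1 at 11.1 CPM in AU-15330 replicate 1 against 5.86 to 7.71 CPM (0.649).

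The effect of AU-15330 differed between cells with and without cisplatin for 25 genes (interaction term, edgeR's quasi-likelihood test, adjusted p under 0.05), and the values given here are the effect with cisplatin minus the effect without, on the log2 scale. The difference was below 0 for Hk1 (-0.33). It was above 0 for the transporters Slc2a1 (1.40), Slc2a3 (0.54) and Slc16a3 (1.55). In upper glycolysis it was above 0 for Hk2 (0.85), Gpi1 (1.75), Pfkp (0.98), Aldoa (0.88) and Aldoc (1.24), and in lower glycolysis for Tpi1 (0.74), Gapdh (1.42), Pgk1 (1.79), Pgam1 (0.90), Eno1 (0.68) and Pkm (0.77). Lactate dehydrogenase gave Ldha (1.08). Among the other low-oxygen targets it was above 0 for Vegfa (1.76), Adm (2.93), Ndrg1 (2.87), Ero1l (3.31), Bnip3l (0.61), Higd1a (1.17), P4ha1 (1.03), P4ha2 (3.93) and Ankrd37 (2.56). Several of these calls were lost when a single replicate number was left out. The call of Eno1 was lost without each of the 6 numbers in turn (adjusted p = 0.0503 to 0.124), and also with DESeq2's size factors (0.0544), with library totals (0.0664) and without the low-count filter (0.0557). Slc2a3 lost its call without replicate 1, 2, 3, 5 or 6 (adjusted p = 0.0679 to 0.145) and within both sets of replicates (0.0989 and 0.193). Tpi1 lost it without replicate 1, 3 or 5 (0.075 to 0.0981), Pkm without replicate 1, 3 or 5 (0.0535 to 0.0843), Aldoa without replicate 3 or 5 (0.0639 and 0.0506), Aldoc without replicate 1 (0.0506) and Pgam1 without replicate 3 (0.0547). Within replicates 4 to 6 the calls of Slc16a3 (0.93, adjusted p = 0.232) and Pgam1 (0.44, 0.0833) were lost, within replicates 1 to 3 that of Hk1 (-0.22, 0.0727), and within both sets that of Adm (0.181 and 0.191). The value of Adm is set by the count floor, since it held 0 to 7 counts per library with cisplatin and 0 to 3 with AU-15330 and with the combination.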

How the results depend on the processing

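Over 12 alternatives (6 other settings and each of 6 replicate numbers left out), 1939 of 2100 values (35 genes, 5 comparisons) kept their direction and their side of the threshold, 129 were no longer called, 13 became called and 19 changed sign, none of which was called under the settings reported. The number of genes called changed by over 1.5 times in these cases, and the cause was not tested except where stated. Requiring a fold change above 1.5, a stricter test by construction, left 0 higher and 17 lower with cisplatin, 3 higher with AU-15330, 3 higher and 7 lower for the combination against cisplatin, 2 higher and 0 lower against AU-15330, and 8 above and 0 below 0 for the interaction. Of all 12941 genes, the same test called 1422 higher and 367 lower with cisplatin, and 2177 and 2480 with AU-15330. For the combination it called 1459 and 2344 against cisplatin, and 721 and 121 against AU-15330. The interaction gave 342 above and 584 below 0 over all genes. For the interaction, 2 of the 35 genes were below 0 with DESeq2's size factors, with library totals and with DESeq2. Over all genes these were 2285, 2506 and 2515. Within replicates 1 to 3, 0 genes were higher with cisplatin and 0 were below 0 for the interaction, and within replicates 4 to 6, 14 were higher for the combination against cisplatin. Leaving out each replicate number gave, for higher and lower, 1 to 1 and 28 to 30 with cisplatin, 6 to 7 and 25 to 28 with AU-15330, 7 to 8 and 12 to 16 for the combination against cisplatin, 4 to 5 and 7 to 7 against AU-15330, and 17 to 23 and 1 to 1 for the interaction. Library totals without TMM moved the median of all genes from -0.0030 to 0.13 with AU-15330, and from 0.039 to 0.10 for the combination against cisplatin. They turned 3360 higher and 3329 lower calls into 3977 and 2529 with cisplatin, and 2313 and 2048 into 1791 and 2506 for the interaction.

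These log2 fold changes changed sign. With cisplatin, Pfkfb4 was 0.041 with library totals, -0.087 to 0.016 when a replicate number was left out and 0.088 in replicates 4 to 6, and Plod1 was 0.041 in replicates 4 to 6. With AU-15330, Gapdh was 0.30 in replicates 4 to 6, and Bhlhe40 was -0.38 in replicates 1 to 3 and -0.00084 to 0.36 when a replicate number was left out. For the combination against cisplatin, replicates 4 to 6 gave 0.032 for Gpi1, 0.32 for Aldoc, 0.33 for Pkm, 0.077 for Ldha and 0.20 for P4ha1, and replicates 1 to 3 gave -0.081 for Aldoa, -0.20 for Tpi1, -0.14 for Pgam1, -0.14 for Eno1 and -0.12 for Bnip3l. Pgam1 was also -0.015 with DESeq2's size factors, -0.015 without the filter, -0.016 with DESeq2 and -0.069 to 0.065 when a replicate number was left out, Pkm 0.022 with library totals and -0.12 to 0.041, and Adm -1.1 to 0.11. Against AU-15330, replicates 4 to 6 gave 0.043 for Slc2a1, 0.037 for Pfkp and 0.15 for Plod1, replicates 1 to 3 gave -0.055 for Pgk1, Pkm was -0.00079 without the filter and -0.022 to 0.058 when a replicate number was left out, and Plod1 -0.10 to 0.00088. For the interaction, replicates 4 to 6 gave -0.14 for Bhlhe40 and -0.18 for Plod2, and library totals gave -0.0092 for Plod1.

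Same-numbered libraries of different groups had correlations of their deviations from the group means of -0.13 to 0.48 (mean 0.14), with 23 of 36 pairs over 0.1 and 10 of 24 libraries closest to their own number. Differently numbered libraries had a mean of -0.027, with 35 of 180 pairs over 0.1, so same-numbered libraries were more alike on average. The numbers were not taken to pair the libraries, since neither the labels tie them to a shared source nor was every same-numbered pair over 0.1. With a replicate block, 1 gene was higher and 30 lower with cisplatin, 6 and 28 with AU-15330, 8 and 16 for the combination against cisplatin, 6 and 8 against AU-15330, and 24 above and 1 below 0 for the interaction. Over all 12941 genes that fit called, in the same order, 3702 and 3652, 4950 and 5016, 4874 and 4412, 3229 and 2956, and 2789 and 2514. Under the block Ldha against cisplatin (-0.39, adjusted p = 0.0312), and Aldoa (-0.43, 0.0246) and Higd1a (0.52, 0.00934) against AU-15330, became called, and Pkm against cisplatin was 0.016. Depth limits Adm, Slc16a3, Bnip3 and P4ha2 with AU-15330, where libraries held few counts.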
